A study of Mus musculus with 5 samples.

Results

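The genes of antigen presentation by major histocompatibility complex (MHC) class II were measured by single-cell RNA sequencing in mouse lung. Members were the 7 listed genes Cd74, H2-Aa, H2-Ab1, H2-Eb1, H2-DMa, H2-DMb1 and Ciita, taken by exact symbol from 42454 features in all 5 libraries, and all 7 were found. Newborn C57BL/6J mice breathed room air or more than 95% O2 for 3 days and then recovered in room air, and lungs were taken at postnatal day (pnd) 7 or pnd60. Unsorted cells of air-exposed and hyperoxia-exposed mice were profiled at both ages, and cells that stained with C12FDG, a fluorescent substrate of the senescence-associated galactosidase, were sorted from hyperoxia-exposed lungs at pnd7. Each of the 5 conditions had 1 library. The sorted library came from the pooled lungs of 3 mice, and the number of mice behind the others was not given in the sources used here. Per the paper, the unsorted cells of both pnd7 and pnd60 came from an earlier data set of the same laboratory, so sorting and the occasion of the experiment cannot be told apart. C12FDG also stains cells rich in lysosomal galactosidase, which limits the sorted library as a model of senescent cells.

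Class II molecules are pairs of an α and a β chain that show peptides from endosomes to CD4 T cells. The invariant chain, encoded by Cd74, escorts the pair out of the endoplasmic reticulum and blocks its groove, and H2-DM, a pair made by H2-DMa and H2-DMb1, removes the last invariant chain fragment so that a peptide can be loaded. Ciita is the transactivator that switches these genes on in dendritic cells, B cells and activated macrophages, and in the lung type II alveolar epithelial cells carry class II as well. H2-Aa and H2-Ab1 encode the I-A pair. H2-Eb1 encodes the β chain of I-E, whose α chain gene is inactive in C57BL/6 mice.

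Class II promoters share an X box, bound by the RFX complex (X1) and CREB (X2), and a Y box bound by NF-Y, the surface on which Ciita docks. Of the 7 members, 4 had a promoter in the RefSeq table (GRCm38.p6), namely H2-Aa, H2-Eb1, H2-DMb1 and H2-DMa. The 120 bases before the start are shown for the 3 members in which a Y box core (GATTGG) followed an X1 core (G, any base, AAC, any base, GATGA) or X2 core (TGACGTCA, which reads the same on both strands) by 10 to 30 bases. Capitals mark the cores read on the strand shown. H2-Eb1 has a further Y core on the opposite strand, 35 to 30 bases before the start, left in lower case.
H2-DMb1, chr17:34153071-34153190, plus strand: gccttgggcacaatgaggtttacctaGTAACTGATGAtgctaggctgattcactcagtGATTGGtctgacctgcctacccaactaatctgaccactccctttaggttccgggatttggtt
H2-Eb1, chr17:34305747-34305866, plus strand: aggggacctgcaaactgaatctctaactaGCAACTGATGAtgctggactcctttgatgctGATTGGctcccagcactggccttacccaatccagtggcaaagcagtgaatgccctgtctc
H2-Aa, chr17:34287824-34287943, minus strand: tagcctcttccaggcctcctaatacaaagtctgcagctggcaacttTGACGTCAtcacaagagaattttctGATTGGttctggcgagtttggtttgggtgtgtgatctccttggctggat

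Searched on both strands in windows from 250 bases before to 50 after the start, the Y core was in 16.1% of 32851 promoters, the X1 core in 0.201% and the X2 core in 1.79%. The spaced pair was in 20 promoters (0.0609%). H2-DMa had only a Y core, 199 to 194 bases before the second of its listed starts. H2-Ab1, Ciita and Cd74 were not in the table.

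In the cells kept (more than 700 and fewer than 8000 genes, under 5% mitochondrial counts) the libraries held 493 to 4756 cells and 7880365 to 16648251 counts. The median count per cell was 3915 in air and 7119.5 in hyperoxia at pnd7, 15529 in sorted cells, and 2168 and 2315.5 at pnd60. Kept libraries shared 0 to 4 barcodes. Levels are CPM, the counts of a gene scaled to a total of 1000000, with exact 95% Poisson intervals, and ratios carry 95% binomial intervals. The spread between mice could not be measured with 1 library each, so no p-value is given. These intervals cover counting error only, and a 2-fold difference was used as the call.

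The members fell into 2 sets by how many counts they had. Cd74 had 19338 counts in air pnd7, 15850 in hyperoxia pnd7, 6529 in sorted cells, 72219 in air pnd60 and 84892 in hyperoxia pnd60. Ciita had 225, 159, 4, 1486 and 1616 counts in the same order. The H2 members had at most 48 counts in any library, and all 5 of them together had 58, 50, 32, 125 and 147. Cd74 therefore made up nearly all of any sum over the members, 98.6% in air pnd7.

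The low H2 counts cannot be read as low expression. The feature list holds 3 further copies of each of the 5 H2 members under the same symbol with a number added, and none for Cd74 or Ciita. Genes with such copies were low throughout the genome: 1102 of them had a median of 6 counts over the 5 libraries, and 72.1% had under 100, against a median of 557 and 37.3% for 20265 genes without copies. Within 1 Mb of H2-Ab1, 100 genes with copies had a median of 1 count and 40% had none, while the 10 genes without copies had a median of 1088. Adding the copies gave back few counts, 15 in air pnd7, 13 in hyperoxia pnd7, 8 in sorted cells, 45 in air pnd60 and 81 in hyperoxia pnd60. H2-DMb1 has a paralog beside it, H2-DMb2, and how the counting divided reads between them is not known, so its counts are uncertain. The role of the copies in the low counts was not tested.

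**Figure D1:**
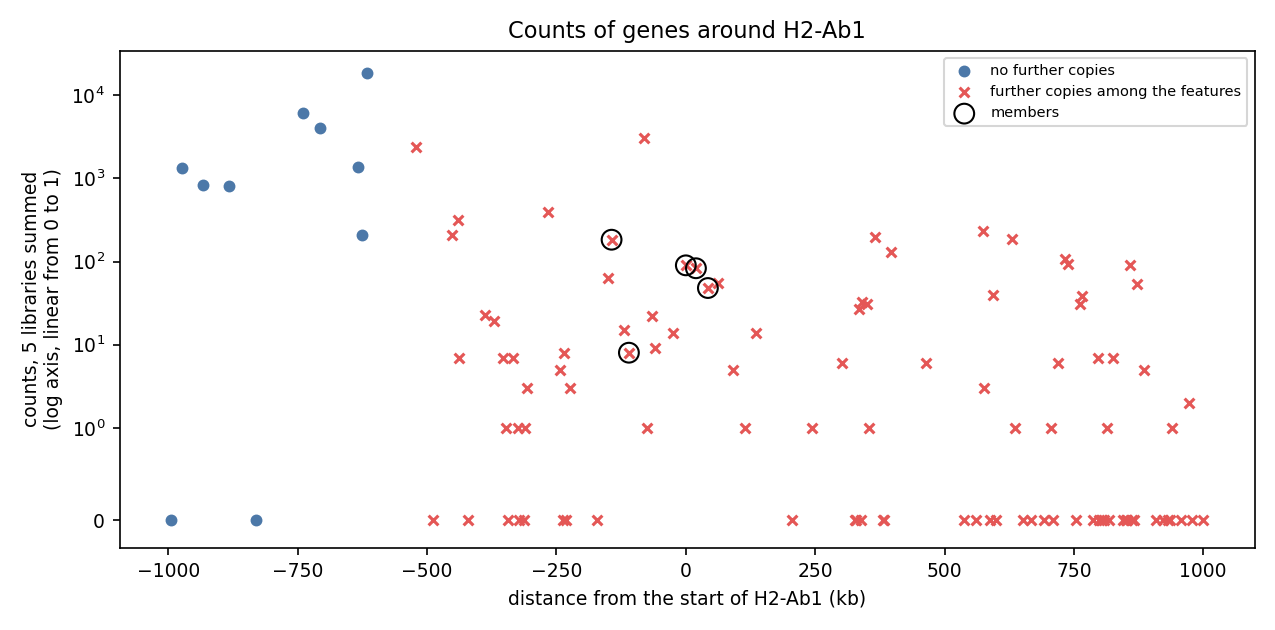
Counts of each gene within 1000 kb of the start of H2-Ab1, summed over the 5 libraries (log axis, linear from 0 to 1), against distance in kb. Circles are genes without further copies, crosses are genes with them, and open rings are the 5 H2 members. Of the crosses, 89% lie under 100 counts, and the circles, all on the far left, are mostly above 100 counts.

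Cd74, the invariant chain, was at 1162 CPM in air pnd7, 1167 in hyperoxia pnd7, 829 in sorted cells, 4898 in air pnd60 and 5134 in hyperoxia pnd60. The pnd60 libraries were the highest, the unsorted pnd7 libraries lay within counting error of each other, and the sorted library was the lowest. Ciita, the transactivator, was at 13.5, 11.7, 0.51, 101 and 97.7 CPM in the same order. Its order over libraries was like that of Cd74 in that pnd60 was highest and sorted cells lowest, with a steeper drop in sorted cells. In such sums over all cells, fewer cells of a type and less RNA per cell cannot be told apart.

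The I-A chains were sparse but followed the same split by age. H2-Aa had 3, 3, 5, 31 and 41 counts, and H2-Ab1 had 2, 6, 8, 40 and 34. By CPM, on these few counts, sorted cells lay above both unsorted pnd7 libraries, unlike for Cd74 and Ciita. H2-Aa was at 0.63 CPM in sorted cells, against 0.18 in air pnd7 and 0.22 in hyperoxia pnd7. H2-Ab1 was at 1.02 CPM, against 0.12 and 0.44. H2-Eb1 had 4, 5, 3, 14 and 22 counts. All 3 were higher at pnd60 than in either unsorted pnd7 library. For H2-Eb1 the interval of air pnd60 (0.52 to 1.59 CPM) overlapped those of air pnd7 (0.07 to 0.62) and hyperoxia pnd7 (0.12 to 0.86). That of hyperoxia pnd60 (0.83 to 2.01) overlapped that of hyperoxia pnd7. These are intervals of single levels, and their overlap does not decide a ratio between libraries. H2-DMa, one chain of the peptide editor, had 48, 34, 16, 39 and 46 counts, which gave 2.88, 2.50, 2.03, 2.65 and 2.78 CPM with overlapping intervals. H2-DMb1, its partner, had 1, 2, 0, 1 and 4 counts, too few to order the libraries. The 0 in sorted cells allows up to 0.381 CPM, with 3 counts taken here as the limit of a 0.

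**Figure D2:**
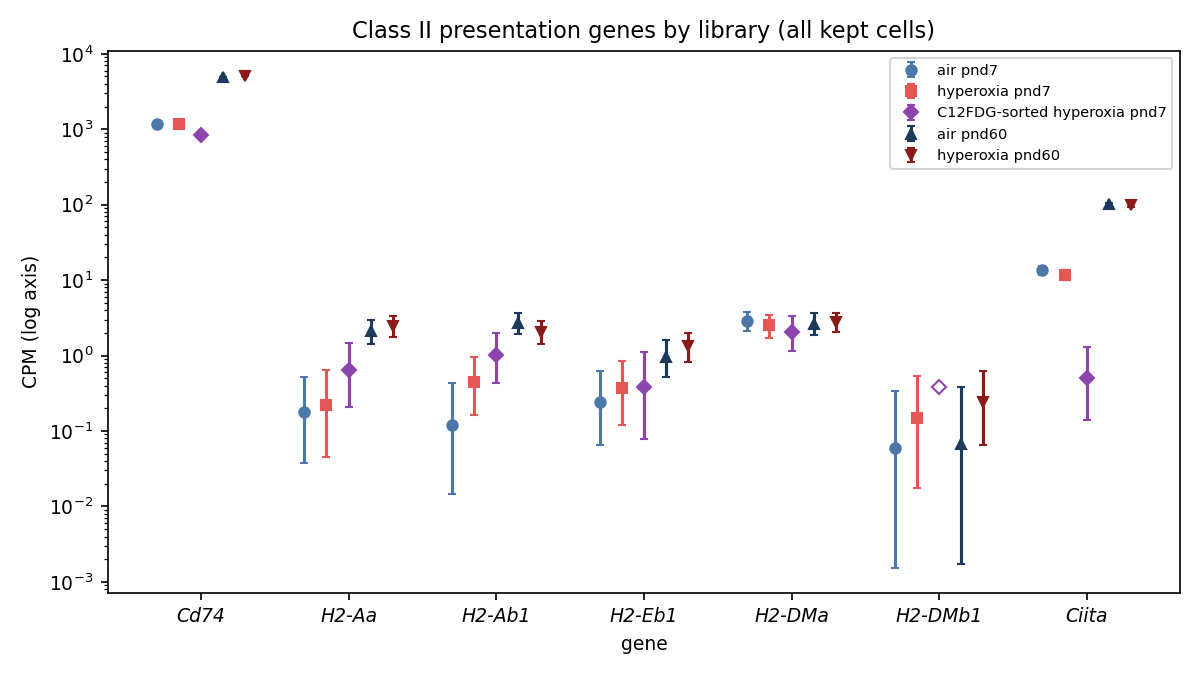
CPM of each member in each library (log axis), with exact 95% Poisson intervals. An open symbol marks 0 counts, drawn at the level of 3 counts. Cd74 and Ciita were highest at pnd60, and H2-DMa lay between 2.03 and 2.88 CPM in all 5 libraries.

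Cells were clustered without the class II genes, and clusters were named from marker genes. In the labelled tissue, lung, the expected classes were present, type II-like cells among them in every library. Of the classes described here, Cd74 at pnd60 was highest in dendritic-like cells, at 24760 CPM in air (123 cells) and 27062 in hyperoxia (140 cells). Interstitial macrophage-like cells followed at 23221 (65 cells) and 23870 CPM (56 cells), then B-like cells at 13861 (1225 cells) and 15257 CPM (1247 cells). Type II-like cells came next at 3876 (445 cells) and 3710 CPM (532 cells), then monocyte-like cells at 3128 and 2307 CPM. Alveolar macrophage-like cells were at 964 and 1172 CPM. In both libraries, each of these 6 classes lay beyond counting error from its neighbour in that order.

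Within cells, the professional presenting classes carried Cd74 almost throughout. With each cell thinned to 1000 counts, at least 1 Cd74 molecule was found in 99.9% of B-like cells in air pnd60 and 99.7% in hyperoxia pnd60, with medians of 14 and 15 per 1000. Dendritic-like cells had a median of 25 in both pnd60 libraries. Type II-like cells held few molecules each, a median of 3 at pnd60, but 90.5% and 91.2% of them had one.

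Ciita had the same leading classes at pnd60. It was at 423 and 380 CPM in dendritic-like cells of air and hyperoxia, 350 and 381 CPM in B-like cells, and 205 and 184 CPM in interstitial macrophage-like cells. Type II-like cells were at 44.3 and 41.0 CPM. B-like cells held 48.7% and 52.5% of the Ciita counts of the pnd60 libraries. Over 55 points, each a cell class in a library, Pearson's r of log2(CPM + 10) between Cd74 and Ciita was 0.85, and 0.84 over the 52 points without B-like cells. The points of a library share its depth and free RNA, so this is a description only.

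**Figure D3:**
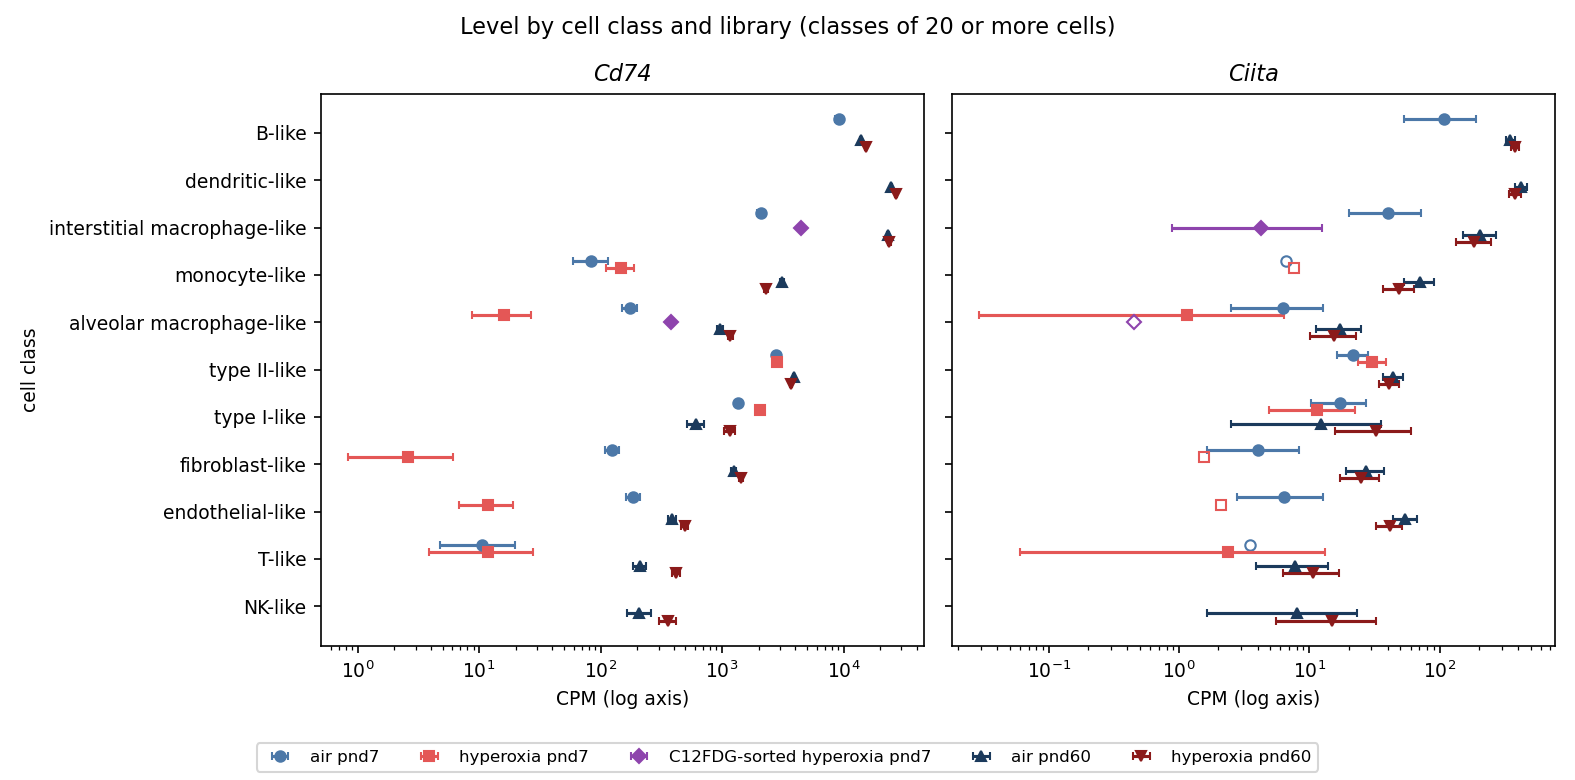
Cd74 (left) and Ciita (right) in CPM (log axes) by cell class and library, for classes of 20 or more cells, with exact 95% Poisson intervals. Open symbols mark 0 counts, drawn at the level of 3 counts. Dendritic-like, interstitial macrophage-like and B-like cells were highest for both genes at pnd60, and type II-like cells lay within a narrow Cd74 range over both ages.

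At pnd7 the order was different. B-like cells were at 9110 CPM of Cd74 in air (33 cells) and dendritic-like cells at 13057 CPM (11 cells). Type II-like cells were at 2779 CPM in air (170 cells) and 2820 CPM in hyperoxia (135 cells), above interstitial macrophage-like cells at 2091 CPM (23 cells) and 1379 CPM (19 cells). In air, 551 of the 570 Cd74 counts of interstitial macrophage-like cells lay in 3 of 23 cells. Type II-like cells held 35.9% of the Cd74 counts of air pnd7 and 39.3% of those of hyperoxia pnd7, against 15.4% and 14.3% at pnd60. B-like cells held 39.7% and 40.0% at pnd60.

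Cells in clusters left unnamed held 25.9% and 34.9% of the Cd74 counts at pnd7. One such cluster was led by Igha_1 and Jchain, which encode the IgA heavy chain and the joining chain of plasma cells. The B cell markers Cd79a, Ms4a1 and Cd79b were among its leading genes as well. Its Cd74 was at 7626 CPM in 87 cells of air pnd7 and 9413 CPM in 48 cells of hyperoxia pnd7. With coarser clustering (resolution 1) the B-like class had 120 cells in air pnd7 and 66 in hyperoxia pnd7, against 33 and 18 here. The B-like values of pnd7 given here thus leave out cells that another classing counts as B-like. Another unnamed cluster, led by dividing-cell genes and Scgb3a2, an airway secretory gene, had 7 of 10 type II markers raised but none among its leading genes. Its Cd74 was at 1494 CPM in 27 cells of air pnd7 and 2067 CPM in 129 cells of hyperoxia pnd7.

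**Figure D4:**
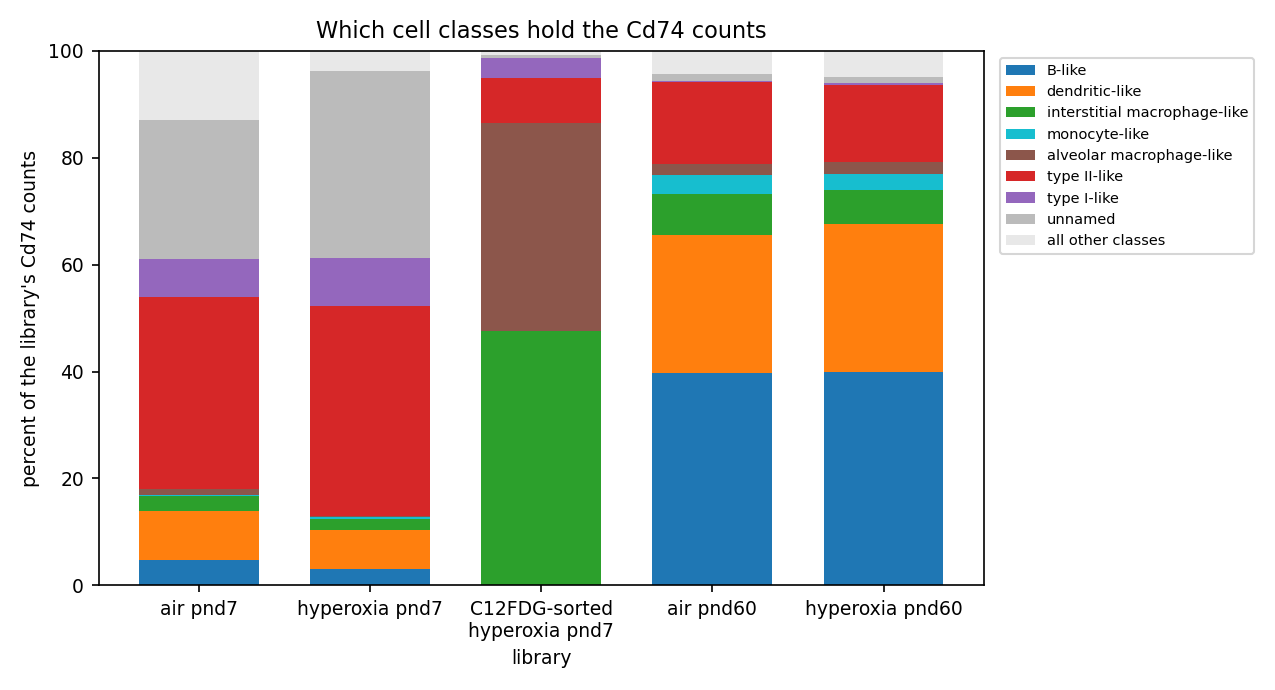
Share of each library's Cd74 counts (percent, bars stacked to 100) by cell class. Type II-like and unnamed cells hold the largest parts in unsorted pnd7 libraries, B-like and dendritic-like cells at pnd60, and interstitial and alveolar macrophage-like cells in the sorted library.

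Cd74 in classes that do not present by class II is taken here as background, and it was not even over classes or cells. The share of the Cd74 counts that Cd79a, a B cell receptor chain, would bring with it at the ratio found in B-like cells was computed for each class. In T-like cells it came to 127% in air pnd60 and 77.5% in hyperoxia pnd60, where Cd74 was at 210 and 415 CPM. It was 1.78% and 3.62% in type II-like cells, 0.195% and 0.0481% in dendritic-like cells, and 20.7% and 9.86% in alveolar macrophage-like cells. In fibroblast-like cells of pnd60, at 1249 and 1432 CPM of Cd74, it was 12.6% and 15.1%. Of those 1696 and 2019 fibroblast-like counts, 67.4% and 43.8% lay in 3 cells of each library. In T-like cells of air pnd60, 219 of 296 counts lay in 10 of 575 cells. Erythroid-like cells of air pnd7 had 1624 Cd74 counts, spread over 379 of 588 cells, and the share at the Cd79a ratio was 15.4%. Sftpc, a surfactant gene of type II cells, was at 38903 CPM in these cells and 212915 CPM in type II-like cells of air pnd7. The part of type II RNA in their Cd74 was not tested.

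Hyperoxia was compared with air at pnd7 to ask whether neonatal oxygen alters the class II genes during alveolarization. Neither Cd74 (log2 ratio 0.01, interval -0.02 to 0.04) nor Ciita (-0.21, -0.51 to 0.09) differed beyond counting error. Of the 7 members, 2 had the 100 counts set for a call, and 0 were called, where 0.183% of 12591 genes were called higher and 0.802% lower. In type II-like cells Cd74 was nearly level, with a log2 ratio of 0.02 (-0.03 to 0.07). Ciita stood at 30.4 CPM after hyperoxia against 21.6 CPM in air (log2 ratio 0.49, -0.05 to 1.03).

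In alveolar macrophage-like cells of pnd7, Cd74 was lower in hyperoxia, at 16.1 against 175 CPM (log2 ratio -3.45, -4.34 to -2.66). In air 158 of the 197 counts lay in 3 of 81 cells, and B-like RNA at the Cd79a ratio would give 17.3% of them. In hyperoxia 12 of the 14 counts lay in 3 of 54 cells. Thinned to 1000 counts, 4 of 81 cells in air and 0 of 54 in hyperoxia had a Cd74 molecule, though 13 and 5 cells had one before thinning. With thinned cells the ratio of the summed members was -0.83 against -3.00. As no thinned hyperoxia cell had Cd74 and a 0 is set to 3 counts, the thinned value does not measure the size of the drop. In the same cells, 0.276% of 3625 genes were called higher and 0.414% lower.

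Hyperoxia was compared with air at pnd60 to ask whether a difference persists into adulthood. Cd74 was slightly higher in hyperoxia (log2 ratio 0.07, 0.05 to 0.08) and Ciita was level (-0.04, -0.15 to 0.06). Again 0 of the 2 members with enough counts were called, where 0.271% of 12928 genes were called higher and 0.248% lower. Within classes the Cd74 ratios were of both signs. They were 0.14 in B-like cells (0.12 to 0.16), 0.13 in dendritic-like cells (0.10 to 0.16), 0.04 in interstitial macrophage-like cells (-0.01 to 0.09), -0.06 in type II-like cells (-0.10 to -0.03) and -0.44 in monocyte-like cells (-0.52 to -0.36). Larger ratios stood in classes with few Cd74 counts, at 0.99 (0.79 to 1.19) in T-like cells, 0.93 (0.65 to 1.21) in type I-like cells and -1.74 (-2.30 to -1.21) in pericyte-like cells, where 42 counts in hyperoxia faced 98 in air. In pericyte-like cells (38 against 35 cells) Cd74 was thus called lower, where 2.44% of 451 genes were called lower and 8.65% higher. In air 95 of the 98 pericyte-like counts lay in 3 cells, and in hyperoxia 31 of the 42 did. B-like RNA at the Cd79a ratio would give 42.5% of these counts in air and 13.4% in hyperoxia. In type I-like cells 3 cells held 104 of the 149 counts in air and 288 of the 353 in hyperoxia. The share at the Cd79a ratio was 21.0% and 3.19% there. Ciita differed beyond counting error in none of the 5 classes from B-like to monocyte-like named first.

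Sorted cells were compared with unsorted cells of hyperoxia pnd7 to ask how C12FDG-positive cells differ. Of the sorted cells 413 of 493 were alveolar macrophage-like and 47 interstitial macrophage-like, and no B-like cell was found. The log2 ratio of the median gene was -0.55, so levels are read against that shift. Cd74 was lower by CPM (log2 ratio -0.49, -0.54 to -0.45), close to the median gene, and with trimmed-mean scaling (TMM) the ratio of the summed members was 0.06. Ciita was lower well past the median gene, with 4 counts against 159 (log2 ratio -4.53, -6.42 to -3.14). It was the 1 member called, among 36.4% of 11340 genes called lower and 8.17% higher.

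Within the sorted library, interstitial macrophage-like cells held 47.5% of the Cd74 counts at 4435 CPM. They also held 3 of the 4 Ciita counts. Of their 3102 Cd74 counts, 1295 lay in 3 cells and 2767 in 10 of 47 cells. The 413 alveolar macrophage-like cells held 38.8% of the Cd74 counts at 380 CPM, against 16.1 CPM in 54 unsorted cells (log2 ratio 4.56, 3.81 to 5.44, where 4.21% of 6644 genes were called higher and 13.9% lower). Different clusters hold this class in the 2 libraries: 367 of the sorted cells lay in a cluster led by Slc7a11, Hmox1 and Mt1, stress genes of cystine import, heme breakdown and metal binding. Of the 2536 Cd74 counts, 1268 lay in 3 cells, and after thinning 6.78% of sorted cells had a molecule. With Seurat integration the class had 92 sorted cells with 10 Cd74 counts, and the direction turned (log2 ratio of the summed members -2.95). Ciita had 0 counts in these 413 cells, which allows up to 0.450 CPM at 3 counts.

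Age was compared in air and in hyperoxia, pnd60 against pnd7, to follow the genes from the alveolar stage into adulthood. Cd74 was higher at pnd60 in both, with log2 ratios of 2.08 (2.05 to 2.10) in air and 2.14 (2.11 to 2.16) in hyperoxia. Ciita was higher by 2.90 (2.70 to 3.11) and 3.06 (2.83 to 3.31) on the log2 scale. Both members with enough counts were called higher, where 15.1% of 13003 genes were called higher and 9.35% lower in air, and 19.1% of 12923 higher and 9.49% lower in hyperoxia. The median gene was at 0.23 in air and 0.29 in hyperoxia. Below the limit for calls, H2-Aa (3.49, 1.84 to 5.82, in hyperoxia) and H2-Ab1 (2.22, 0.95 to 3.76, in hyperoxia) were also higher beyond counting error, and H2-DMa was not (0.15, -0.52 to 0.84). H2-Eb1, with 14 against 4 counts in air and 22 against 5 in hyperoxia, was likewise higher beyond counting error by the ratio. Without the cells classed as B-like (33 in air pnd7 and 1225 in air pnd60) the summed members differed by 1.63 in air and 1.65 in hyperoxia. The unnamed cluster led by Igha_1, which has B cell markers among its leading genes, stayed in. It held 3838 Cd74 counts in air pnd7 and 394 in air pnd60, so these are not ratios without all B cells.

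**Figure D5:**
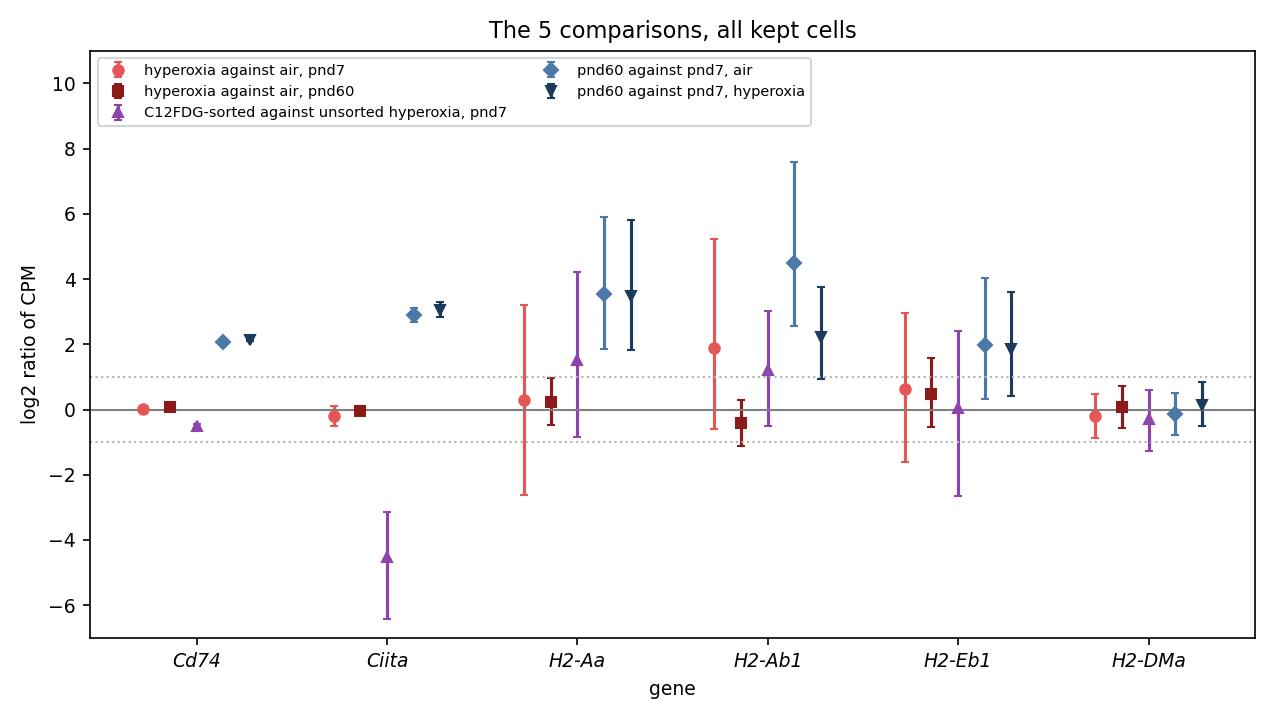
Log2 ratio of CPM for 6 members in the 5 comparisons over all kept cells, with 95% binomial intervals. Dotted lines mark 2-fold. Both age comparisons lie above 2-fold for Cd74 and Ciita, the hyperoxia comparisons of these 2 genes lie near 0, and Ciita is far below 0 in sorted cells. The H2 members have wide intervals, and H2-Ab1 in hyperoxia against air at pnd7 (6 against 2 counts) lies past the line with an interval across 0.

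The age difference was unequal over cell classes. Among the myeloid classes the log2 ratio of Cd74 in air was 5.22 (4.76 to 5.73) in monocyte-like cells, 3.47 (3.35 to 3.60) in interstitial macrophage-like cells and 2.46 (2.24 to 2.68) in alveolar macrophage-like cells. The monocyte-like value depended on the classing: for the summed members it was 2.58 with resolution 1 against 5.22. At pnd7 in air 54 of 79 monocyte-like cells lay in a cluster led by Adgre4 and Fcgr4 that held 2 cells at pnd60. Its Cd74 was at 87.1 CPM in air pnd7. Another cluster, led by Adgre4 and Cd300e, held 149 of the 255 monocyte-like cells of air pnd60, at 3003 CPM of Cd74. In the cluster led by F13a1 and Ly6c2, found at both ages, Cd74 was at 80.3 CPM in 23 cells of pnd7 and 3292 CPM in 104 cells of pnd60. In interstitial macrophage-like cells 3 of 23 cells had a molecule at 1000 counts in air pnd7 and 62 of 65 in air pnd60. In alveolar macrophage-like cells the share was 4.94% in air pnd7 and 36.4% in air pnd60, beside 0.690% and 6.49% in T-like cells of the same libraries. Ratios were large too where levels were low, at 4.32 (3.38 to 5.46) in T-like cells, where pnd7 held 9 counts, and 3.33 (3.13 to 3.55) in fibroblast-like cells. Of the fibroblast-like cells in air, 125 of 139 at pnd7 lay in a cluster led by Mfap4 and 259 of 299 at pnd60 in another led by Inmt. B-like cells, which had Cd74 nearly throughout at both ages, differed by 0.61 (0.51 to 0.70). At pnd7 32 of these 33 cells lay in a cluster led by Vpreb3, which held 125 of 1225 at pnd60, and within it Cd74 was at 8922 CPM at pnd7 and 10217 CPM at pnd60 in air.

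Type II-like cells differed less than the myeloid classes in air, by 0.48 (0.44 to 0.52) for Cd74, an interval that overlapped that of B-like cells. In hyperoxia type II-like cells differed by 0.40 (0.35 to 0.44). Their median gene was near these ratios, at 0.26 in air and 0.32 in hyperoxia. Different clusters hold the type II-like class at the 2 ages. Type I-like cells went the other way, with Cd74 lower at pnd60 in air (log2 ratio -1.15, -1.40 to -0.90). Different clusters hold this class too, 1 with all 217 cells of air pnd7 and another with 39 of 41 of air pnd60. The class depended on the classing. Of the 217 cells, 0 were type I-like with resolution 1, 46 with Seurat integration and 92 by the markers of each cell. The type I-like ratio was not recomputed under these. Sftpc, the surfactant gene of type II cells, was at 70922 CPM in type I-like cells of air pnd7 and 5420 CPM in those of air pnd60, and its part in the Cd74 difference was not tested. For Ciita in air the log2 ratio was 1.03 (0.56 to 1.52) in type II-like cells, 1.71 (0.86 to 2.71) in B-like cells and 2.35 (1.38 to 3.44) in interstitial macrophage-like cells. Within the B-like cluster led by Vpreb3, Ciita was at 111 CPM at pnd7 and 220.0 CPM at pnd60 in air, with overlapping intervals. In monocyte-like cells Ciita had 0 counts in 79 cells of air pnd7 and 59 in 255 cells of air pnd60, a log2 ratio of at least 3.41 with the 0 set to 3 counts.

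The other class II genes share the members' copies and were as sparse: 0 of the 5 in the features had enough counts in any comparison. Among the factors that bind the class II promoter, 6 of 7 had enough counts and 1 was called higher with age in air, Creb1 (log2 ratio 1.04), beside 15.1% of all genes, while Rfx5, a DNA-binding subunit of RFX, was at 0.92 in air. In hyperoxia Creb1 (1.02) and Rfx5 (1.23) were called higher with age, beside 19.1% of all genes. In sorted cells Rfx5 (-3.26), Nfyb (-1.34) and Creb1 (-1.11) were called lower, beside 36.4% of all genes and a median gene at -0.55. Nfya has a further copy and was nearly uncounted. In the interferon gamma pathway, which induces Ciita, the cytokine gene Ifng (1.73), the transcription factor Irf1 (1.42) and the kinases Jak2 (1.25) and Jak1 (1.07) were called higher with age in air, beside 15.1% of all genes. After hyperoxia they were higher at pnd60 too: Ifng at 8.04 against 3.17 CPM, Irf1 at 109 against 44.1, Jak2 at 107 against 43.5 and Jak1 at 322 against 139. None of these lists had a called gene in either comparison of hyperoxia with air.

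Genes of endosomal processing, cathepsins and legumain that cut the invariant chain or antigen and the thiol reductase Ifi30, were higher in the sorted library over all cells. Of its 493 cells 413 were alveolar macrophage-like, against 54 of 1246 in unsorted hyperoxia pnd7. The mix of cells and the level per cell cannot be told apart in these ratios. The same holds for the other sorted ratios and the age ratios of listed genes, which are over all cells. From air pnd7 to air pnd60, B-like cells went from 33 to 1225 and erythroid-like cells from 588 to 17. All 6 of the list were called higher in sorted cells, where 8.17% of all genes were: Ctss (2.93), Ifi30 (2.92), Ctsd (2.78), Ctsb (1.95), Ctsl (1.22) and Lgmn (1.10), with a median of 2.37 against -0.55 for all genes. Ifi30 has 1 further copy among the features, as Nfya does, so its counts are uncertain. With age in air the 1 gene called of 5 with enough counts was Ctss, the cathepsin that finishes invariant chain cleavage (1.03), beside 15.1% of all genes, and it was called in hyperoxia at 1.31. Of the turnover genes, March1, a ubiquitin ligase that removes class II from the surface, was called higher with age at 1.99 in air and 1.91 in hyperoxia, and Cd83, which opposes it, at 1.49 in air and 1.35 in sorted cells. Among co-stimulatory genes Cd86 was called higher in sorted cells (3.00) and with age (1.20 in air and 1.04 in hyperoxia), and Cd40 lower in sorted cells (-4.39). Among the binding partners of CD74, its ligand Mif was called lower with age (-1.08 in air and -1.22 in hyperoxia), and the co-receptors Cxcr4 (2.42) and Cd44 (1.73) were called higher in sorted cells. Cxcr4 was also called higher with age, at 2.62 in air and 1.72 in hyperoxia. Of all genes, 15.1% were called higher with age in air and 9.35% lower, and 19.1% higher and 9.49% lower in hyperoxia. In sorted cells 8.17% of all genes were called higher and 36.4% lower.

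The genes whose pattern over the 55 points was most like the summed members were named by Pearson's r of log2(CPM + 10). Fgd2 was first at 0.77, followed by Snx8 (0.68), Herpud1 (0.67), Kmo (0.67), Irf4 (0.67), Birc3 (0.67), Cd83 (0.66), Blnk (0.65), Snx29 (0.65) and Ctsh (0.65). Irf4 is a transcription factor and Blnk an adaptor of B cells, and Ctsh is a lysosomal protease.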

How the data were processed

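Each library was made with 10x Genomics 3′ chemistry v3.1. Raw UMI counts per gene and barcode were deposited without normalization. Per the labels the authors used Cell Ranger, mm10 and Seurat 3.2.1, and per the file headers the matrix software was version 3.1.0. The filter on genes and mitochondrial counts (2 ribosomal RNA features) was applied here. Counts were summed per library or class and divided by their total (CPM). A 0 was set to 3 counts, and calls needed 100 counts over both groups and a 2-fold ratio.

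Cells were clustered with scanpy 1.11.5 and leidenalg 0.10.2 (2997 variable genes, 50 components, 15 neighbours, resolution 2), without integration. A cluster took the name of the class with the highest mean fold over its markers, with 3 or more raised 2-fold. It was left unnamed if another class had more markers among its 10 leading genes. It was also left unnamed if no marker of its class led and the cluster was shallow or another class was raised. Scrublet called 0 to 157 doublets per library, 0% to 3.30%, which were left in. Alternatives used edgeR 4.0.16 (TMM) and Seurat 5.3.0 with sctransform 0.4.2. The ratio and its interval were tested on simulated data. Members, lists and comparisons were chosen with earlier results of these data known. Named genes were the members, the listed pathway genes, and the 10 genes most like the summed members. Genes that lead a cluster, and Cd79a as a tracer of B-like RNA, were added after their values were seen. One gene of the listed pathways is not reported here.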

Additional observations from a re-analysis of the deposited data

Results flagged for a closer look

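In 4 cell classes hyperoxia against air pointed one way at pnd7 and the other at pnd60 for Cd74, each beyond counting error. With 1 library per condition the difference between ages was not tested. The log2 ratios of CPM were -3.45 at pnd7 and 0.28 at pnd60 in alveolar macrophage-like cells, -3.96 and 0.34 in endothelial-like cells, -5.58 and 0.20 in fibroblast-like cells, and 0.81 and -0.44 in monocyte-like cells. In air pnd7 most of the Cd74 counts of these classes lay in few cells: 3 cells held 80.2% of 197 counts in alveolar macrophage-like cells, 98.7% of 229 in endothelial-like cells and 98.6% of 214 in fibroblast-like cells. In monocyte-like cells 3 cells held 26.3% of 38 counts in air pnd7 and 46.6% of 58 in hyperoxia pnd7. Ratios without these cells were computed but are not given, because the cells were picked by their Cd74 counts. At pnd60 the fibroblast-like clusters went opposite ways. In the cluster led by Inmt, Cd74 was at 1500 CPM in 259 cells of air and 968 CPM in 277 cells of hyperoxia. In the cluster led by Dcn it was at 13.1 CPM in 40 cells of air and 3474 CPM in 42 cells of hyperoxia. The higher fibroblast-like value at pnd60 thus did not hold in the larger cluster. The direction in monocyte-like cells at pnd7 depended on the processing: the ratio of the summed members was 0.85, but -1.47 with Seurat integration, -1.16 with a class taken from the markers of each cell and -0.18 with thinned cells. In endothelial-like cells of pnd60, B-like RNA at the Cd79a ratio would give 16.1% of 648 Cd74 counts in air. In hyperoxia it would give 34.5% of 931, and its part in the endothelial-like ratio at pnd60 was not tested.

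The further copies of the H2 members, which no comparison above counts, were not empty. They held 15 counts in air pnd7, 13 in hyperoxia pnd7, 8 in C12FDG-sorted hyperoxia pnd7, 45 in air pnd60 and 81 in hyperoxia pnd60, each above the 3 counts taken as the limit of a 0.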

How the results depend on the processing

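No paired analysis was possible because only 1 library was made per condition. The log2 ratio of the summed members was recomputed over all cells under 11 alternatives per comparison. Both age ratios stayed past 2-fold throughout: 2.09 in air and 2.15 in hyperoxia as reported, and 2.76 and 2.87 with all deposited barcodes, 1.86 and 1.88 with TMM factors, 2.04 and 2.12 without hemoglobin counts, 2.31 and 2.27 as the mean CPM of single cells, 2.31 and 2.29 with thinned cells, 2.68 and 2.79 without Cd74, 1.63 and 1.65 without B-like cells, and in hyperoxia 2.17 with 500 to 8000 genes and under 10% mitochondrial counts. Hyperoxia against air at pnd7 was 0.01 as reported, -0.0481 with all barcodes, 0.0903 as the mean of single cells, 0.0681 thinned, 0.29 as the median member and -0.14 without Cd74. At pnd60 it was 0.07 as reported, 0.0824 with the wider filter, 0.0502 with TMM, 0.0476 thinned, -0.0352 without Cd74 and 0.0485 without B-like cells. Sorted against unsorted cells was -0.51 as reported, 0.28 with all barcodes, -0.68 without doublets, 0.0636 with TMM, -0.67 as the mean of single cells, 0.0478 as the median member and -1.75 without Cd74, so its direction depended on the choice. Adding the further copies, an alternative chosen after seeing the data, kept all 5 ratios within counting error. In cell classes, 46 of 88 alternatives stayed within counting error and 81 kept the sign. Seurat integration turned the sorted alveolar macrophage-like ratio from 4.06 to -2.95, and a class taken from the markers of each single cell gave 0.96; integration left 92 of the 413 cells in the class. Monocyte-like cells, a class added after seeing the data, gave an age ratio in air between 2.58 and 5.22 on the log2 scale. Hyperoxia against air at pnd7 in alveolar macrophage-like cells was -0.83 thinned against -3.00 as reported. No thinned hyperoxia cell had Cd74 there and a 0 is set to 3 counts, so the thinned value does not measure the drop. The genes past 2-fold rose from 124 to 515 at pnd7 and from 67 to 335 at pnd60 (hyperoxia against air) with a limit of 20 counts, because more low genes entered.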
